A study of Mus musculus with 4 samples.

Results

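Ralgapa2, Dpp6, Ptprt, Rere and Wwox are 5 long mouse genes that each held 9 or more summits of NKX2.2 occupancy. The genes were chosen by their summit counts in this same list, so the counts are a description. A gene was credited with every summit inside it or at most 10 kb outside it. Of 21887 protein-coding genes, 8 reached 9 summits, a background of 0.0366%, and the 5 genes are among them. Together they had 47 of the 7384 summits in the list.

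The summits come from NKX2.2 chromatin immunoprecipitation and sequencing (ChIP-seq), in which an antibody pulls down the DNA that a factor occupies before it is read by sequencing. The cells were alphaTC6, an established mouse line of pancreatic alpha cells, labelled WT (wild type). The 4 samples were 2 of NKX2.2 ChIP and 2 of input, DNA that was not enriched. A summit is the base of highest enrichment within a peak that the authors called with MACS2, and its deposited score is taken as the authors' −log10 q-value against input, the scale on which MACS2 writes its summit lists.

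The list gives 1 score per peak and no value per library, so the read depth is unknown, and no result below carries a replicate error. Scores ran from 2.03 to 1648 with a median of 13.7, and 7380 of the summits were placed on assembled chromosomes. A score of at least 27.7 put a summit in the top 25% of the list and one of at least 57.3 in the top 10%. Scores and counts come from the same ChIP and input libraries, so neither was tested.

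NKX2.2 is a homeodomain transcription factor that helps to set and keep the identity of pancreatic endocrine cells. Factors of the NKX2 class bind DNA around a short core, CACTT on one strand and AAGTG on the other. Binding away from a gene's start is common for such factors, and a summit inside a long gene does not say which gene it acts on. The 5 genes belong to different pathways. Ralgapa2 encodes the catalytic subunit of a complex that switches off the Ral GTPases, and Dpp6 an accessory subunit of Kv4 potassium channels. Ptprt encodes a receptor tyrosine phosphatase, Rere a nuclear coregulator of the atrophin family, and Wwox a WW-domain oxidoreductase whose gene spans a common fragile site.

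Genes with the same count differed in how densely they were occupied. Ralgapa2 had 11 summits, and Dpp6, Ptprt, Rere and Wwox had 9 each. Per 100 kb of gene and flanks, however, Ralgapa2 had 3.76 summits and Rere 2.50. Dpp6 had 0.968, Wwox 0.965 and Ptprt 0.776. The density in Ralgapa2 and Rere was thus over 2 times that in the other 3 genes, which are the longer ones. With 9 summits each, Dpp6, Ptprt, Rere and Wwox differ in density only through their lengths. Among the 647 protein-coding genes at least as long as Ralgapa2, Ralgapa2 ranked 1 and Rere ranked 2 by density, while Dpp6, Wwox and Ptprt ranked 34, 35 and 60.

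**Figure D1:**
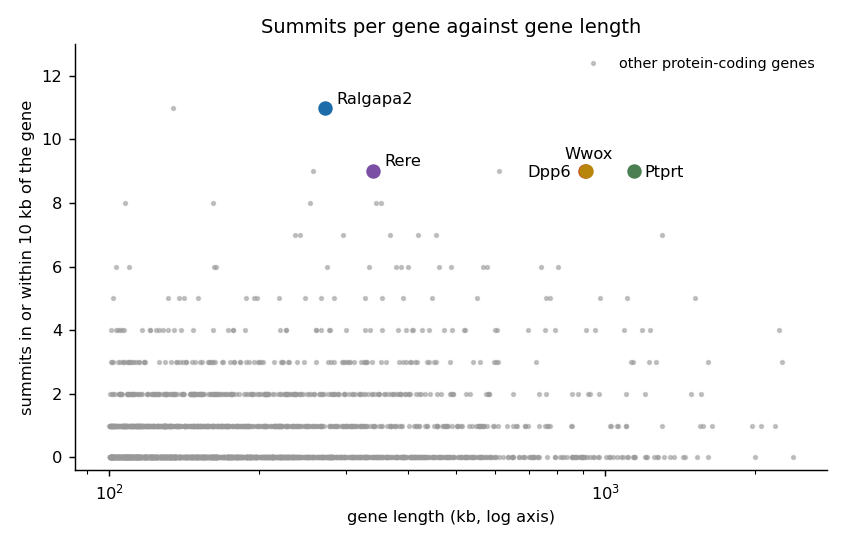
Summits in or within 10 kb of each protein-coding gene of at least 100 kb, against gene length on a log axis; each grey point is a gene, and the 5 genes are coloured. Ralgapa2 stands at 11 summits and the other 4 at 9, and Dpp6 (910.1 kb) lies under Wwox (913.1 kb).

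Genes of similar length mostly had few summits or none. Among the 200 protein-coding genes closest to Ralgapa2 in length the mean was 0.985 ± 1.55 summits (SD, n = 200 genes), and 108 of them had none. The genes nearest to Rere had 1.12 ± 1.56 summits (SD, n = 200), with 96 at none. Those nearest to Dpp6, Ptprt and Wwox had means of 1.16, 1.18 and 1.16. No gene of similar length had as many summits as Ralgapa2 or Rere; the highest were at Pde3a, a cyclic nucleotide phosphodiesterase gene, with 9 beside Ralgapa2, and Tcf4, a helix-loop-helix factor gene, with 8 beside Rere. For Dpp6, Ptprt and Wwox, 3 genes of similar length had as many. Of these, 2 in each case were the others of this trio, and the remaining one was Cacna1c, which encodes a voltage-gated calcium channel.

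Pooling the 5 sets of genes of similar length, with the 5 genes themselves left out, gave 584 genes. Of these, 46.9% had a summit and 0.342% had 9 or more, against 25.8% and 0.0366% of all protein-coding genes. Because the 5 genes were chosen for their counts, nothing is read from this contrast. Just inside the threshold of 9 summits stood Cacna1c and Pde3a besides the members; genes just outside it, with 8 each, include Gse1, Tcf4, Nav1 and Shb. Wdr25, a gene of 134 kb, had 11. Of the protein-coding genes of at least 200 kb with 9 or more summits, only Cacna1c and Pde3a are not among the 5.

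**Figure D2:**
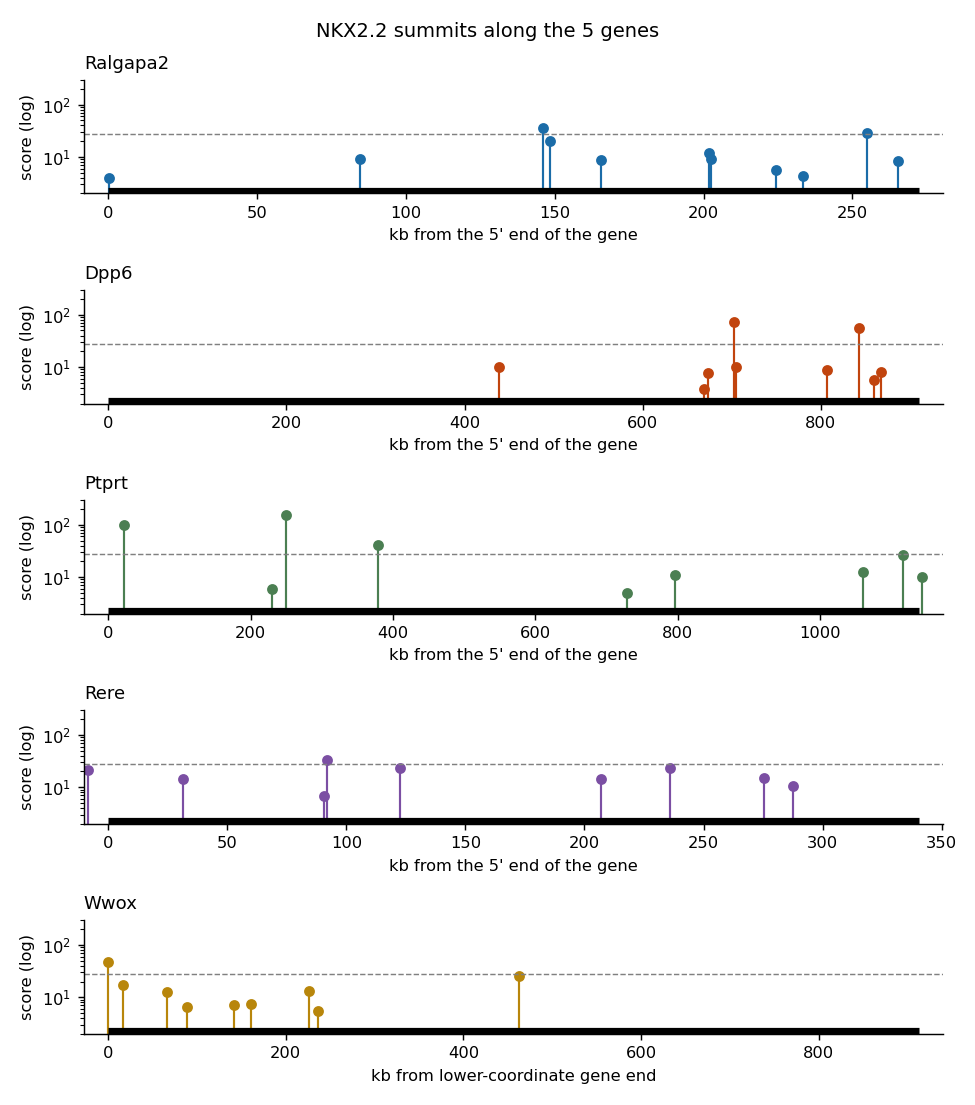
Summits along each gene: the horizontal axis gives kb from the 5′ end of the annotated gene (for Wwox, from its lower-coordinate end), the vertical axis the authors' score on a log scale, the black bar the gene, and the dashed line the top 25% score of 27.7. Summits spread along Ralgapa2, Ptprt and Rere, gather late in Dpp6, and mostly gather near one end of Wwox.

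Ralgapa2 (gene ID 241694; GRCm38 chromosome 2, 146239876 to 146512254, minus strand) is 272 kb long, and all 11 summits lay in the gene body. Its summits were weak for the list, with a lowest score of 3.87, a median of 9.07 and a highest of 36.0. The score was under 10 at 7 of them, against 35.1% of all placed summits. The strongest lay at position 146366302, 146 kb from the 5′ end, with rank 1353 of the list. The other summit in the top 25%, with a score of 28.3, lay at 146257275, near the 3′ end of the gene and 2.01 kb from the lncRNA gene A930019D19Rik.

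Spacing along Ralgapa2 was close. The median distance between neighbouring summits was 19.4 kb, and a window of 100 kb at the 3′ end held 7 of the 11. One pair, at 146309623 and 146310529, lay 0.906 kb apart with scores of 9.19 and 11.7. Another, at 146363955 and 146366302, lay 2.35 kb apart with scores of 19.8 and 36.0, the second being the gene's strongest. The longest stretch with no summit, 84.6 kb, lay at the 5′ end, between 146427551 and the last summit at 146512155.

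That last summit, with a score of 3.87 the weakest at the gene, lay 99 bases inside the 5′ end of the annotated gene and 151 bases before the start that the RefSeq promoter table gives. The gene as annotated thus begins upstream of that start, and the promoter stretch printed here lies within it. Ralgapa2 was the only one of the 4 members with an annotated start in the RefSeq table (GRCm38.p6) to have a summit in a promoter window, 250 bases before to 50 after a start. Dpp6 has 3 starts in that table, and Ptprt and Rere 1 each; Wwox is not among them. Of 17492 protein-coding genes with a start in the table, 7.73% had a summit in a promoter window.

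The partners of Ralgapa2 were then examined, because RalGAP works as a complex of an alpha subunit (Ralgapa1 or Ralgapa2) with the beta subunit Ralgapb, and acts on the GTPases Rala and Ralb, which promote exocytosis. Of the 4 other genes, 3 had a summit, against 25.8% of all protein-coding genes. The background for a summit in a promoter window was 7.73% of protein-coding genes with an annotated start. Nothing is read from so few genes. Ralgapb, Rala and Ralb had 1 summit each, and each lay in a promoter window, as did the one near the start of Ralgapa2. Their scores were 19.1 at Ralgapb, 6.22 at Rala and 29.9 at Ralb. Only Ralb's summit was in the top 25%, and Ralgapa1, the other alpha subunit, had none. The 4 promoters are printed because each of these 4 genes had a summit there. Each is the RefSeq GRCm38.p6 sequence of the 250 bases before the start, 5′ to 3′ along the gene, at chr2:146512005-146512254 on the minus strand, chr2:158409603-158409852 on the plus strand, chr13:17944218-17944467 on the minus strand and chr1:119504783-119505032 on the minus strand. Capitals mark the NKX2 core (CACTT or AAGTG) and the GC box (GGGCGG or CCGCCC), which SP and KLF factors bind; both strands were searched.
Ralgapa2: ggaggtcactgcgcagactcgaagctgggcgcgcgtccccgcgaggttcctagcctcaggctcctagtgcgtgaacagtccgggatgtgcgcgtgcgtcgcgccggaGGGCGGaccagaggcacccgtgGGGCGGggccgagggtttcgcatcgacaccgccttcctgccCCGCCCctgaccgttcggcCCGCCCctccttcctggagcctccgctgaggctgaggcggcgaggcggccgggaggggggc
Ralgapb: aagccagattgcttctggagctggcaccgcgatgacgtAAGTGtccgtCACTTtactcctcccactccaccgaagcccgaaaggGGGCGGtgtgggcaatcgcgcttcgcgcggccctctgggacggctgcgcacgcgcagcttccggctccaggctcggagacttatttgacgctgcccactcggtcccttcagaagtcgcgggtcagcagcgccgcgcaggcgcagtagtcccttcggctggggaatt
Rala: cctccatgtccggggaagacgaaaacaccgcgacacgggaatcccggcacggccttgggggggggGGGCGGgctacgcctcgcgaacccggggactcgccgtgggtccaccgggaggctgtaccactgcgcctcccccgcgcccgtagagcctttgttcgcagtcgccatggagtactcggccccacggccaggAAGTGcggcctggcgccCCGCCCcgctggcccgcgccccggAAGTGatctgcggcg
Ralb: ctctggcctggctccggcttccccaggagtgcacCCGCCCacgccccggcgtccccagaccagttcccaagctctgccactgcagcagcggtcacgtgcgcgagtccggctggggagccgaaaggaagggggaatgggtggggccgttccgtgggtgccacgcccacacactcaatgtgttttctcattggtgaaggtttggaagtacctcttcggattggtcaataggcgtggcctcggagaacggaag

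Counted from the first base printed, the summit fell at base 100 in Ralgapa2, base 142 in Ralgapb and base 189 in Rala. In Ralb it fell 18 bases past the start, beyond the stretch shown. The Ralgapa2 promoter held 4 GC boxes and no NKX2 core, and the nearest GC box began at base 108, 8 bases from the summit. The Ralgapb promoter shown held 2 NKX2 cores, at bases 39 and 49, and 1 GC box. Ralgapb has another annotated start just downstream, and the 250 bases before that one held no summit, no NKX2 core and 3 GC boxes. Rala also had 2 NKX2 cores, of which the nearer began at base 195, 6 bases past its summit, and 2 GC boxes. Ralb had 1 GC box and no NKX2 core in these letters. Over all 21263 promoters of protein-coding genes in the table, 39.7% held the NKX2 core and 42.6% a GC box. Among the 1451 with a summit in the window the shares were 39.8% and 67.8%. The promoter stretches of Dpp6, Ptprt and Rere held no NKX2 core, and that of Ptprt held 3 GC boxes, of which 2 overlap. At Dpp6, the stretches that begin at 27048949 and 27261685 held 1 GC box each. The Dpp6 stretch that begins at 26817107 and the stretch of Rere held none.

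The neighbours of Ralgapa2 include an islet gene. Insm1, which encodes a zinc-finger factor of endocrine differentiation, lies 14.9 kb from the 3′ end of Ralgapa2. It had no summit within 10 kb, and the nearest one in the list was 17.2 kb away. No summit lay between the 2 genes. On the other side, 344 kb separate Ralgapa2 from Kiz, and that stretch held 1 summit. In the 250 kb beyond the 10 kb flanks on each side there were 3 and 1 summits, or 0.800 per 100 kb, against 3.76 in Ralgapa2 with its flanks. Ralgapa2 was chosen for its own count, so nothing is read from this contrast.

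Dpp6 (gene ID 13483; GRCm38 chromosome 5, 26817357 to 27727500, plus strand) is 910.1 kb long, with 9 summits in the gene body and none in the flanks. The summits were unevenly placed: 8 of 9 lay between 73.5% and 95.4% of the way from the 5′ end to the 3′ end. The first 438 kb, 48.1% of the gene, held none. The remaining summit, at position 27255509 with a score of 10.2, lay 6.43 kb upstream of the most downstream of the 3 annotated starts.

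Scores at Dpp6 fell into a few high values among many low ones. The highest, 74.1 at position 27519796, ranked 527 and was in the top 10% of the list. The next, 55.2 at 27660138, ranked 778 and also belonged to the top 25%. The other 7 scores ran from 3.82 to 10.2, and the median over the 9 was 8.66. The highest score made up 40.5% of the sum of the gene's scores. That share was 42.2% at Ptprt, 33.6% at Wwox, 24.8% at Ralgapa2 and 20.1% at Rere. A weak summit with a score of 9.81 lay 1.82 kb from the strongest summit of Dpp6, at 27521611. Another weak pair, at 27486301 and 27490697, lay 4.40 kb apart with scores of 3.82 and 7.76. That pair also lay within 10 kb of Speer4b, a protein-coding gene nested in Dpp6, and was the only case of summits within reach of a second protein-coding gene that lies inside a member.

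Dpp6 and its paralog Dpp10 associate with the pore-forming Kv4 subunits (Kcnd1, Kcnd2, Kcnd3), as do the calcium-binding KChIP proteins (Kcnip1 to Kcnip4). Of these 8 other genes of the channel complex, 5 had a summit, with a median of 2 summits and none with 9. The share with a summit was 25.8% over all protein-coding genes and 46.9% over the genes similar in length to the members. Several genes of the complex are long, among them Dpp10 (1514 kb), Kcnip4 (1136 kb) and Kcnd2 (514 kb), so nothing is read from this count. Dpp10, which is longer than Dpp6, had 5, including one with a score of 329. Kcnip4 had 3 summits with a highest score of 184, and Kcnd3 had 2 with a highest of 109. Kcnip3 had 3 and Kcnip1 2. The highest scores at Dpp10, Kcnip4 and Kcnd3 were above the 74.1 of Dpp6. Kcnd1, Kcnd2 and Kcnip2 had no summit.

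Ptprt (gene ID 19281; GRCm38 chromosome 2, 161521988 to 162661147, minus strand) is 1139 kb long. It had 8 summits in the gene body and 1 in the flank beyond its 3′ end, 4912 bases from the gene. Ptprt held the highest scores of the 5 genes: 154 at position 162411809, rank 217, and 98.8 at 162638996, rank 382, both in the top 10%. Another summit of the top 25%, with a score of 40.5, lay at 162282352. These 3 lay 249, 22.2 and 379 kb from the 5′ end, and no summit farther along the gene reached the top 25%. The highest of the other 6, at 161544054 near the 3′ end, had a score of 27.0, just under it.

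Summits in Ptprt were far apart. Their median spacing was 98.3 kb, close to the 92.8 kb of summits within genes of similar length (n = 143 spacings over genes with at least 2 summits). The closest neighbours, the strongest summit and one with a score of 6.04 at 162430440, lay 18.6 kb apart. A stretch of 350 kb within the gene held none. None of the 9 lay inside the nested lncRNA genes Ptprtos and Gm46774, and the strongest was 17.9 kb from Ptprtos. Among the other receptor phosphatases of the R2B class, which mediate adhesion between like cells, Ptprk had 2 summits and Ptprm and Ptpru had none. This made 1 of 3 genes with a summit, against 25.8% of all protein-coding genes and 46.9% of the genes similar in length to the members.

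Rere (gene ID 68703; GRCm38 chromosome 4, 150281511 to 150621966, plus strand) is 340.5 kb long. It had 8 summits in the gene body and 1 at position 150273017, 8494 bases before the gene. Rere differed from the other members in having even scores: the lowest was 6.71, the median 15.2 and the highest 32.6, and only 1 of 9 was under 10. The highest, at 150373474, was the only one in the top 25%, with rank 1501. It lay 1.35 kb from the weakest, at 150372122. Scores of 23.5 and 23.4 were found at 150404121 and 150517589.

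The summits of Rere were also spread evenly, from 8494 bases before the gene to 288 kb from the 5′ end. Their median spacing was 35.0 kb, and the longest stretch in the gene without one was 84.2 kb, 24.7% of its length. Its surroundings were the densest of the 5: the 250 kb beyond the flank on the side of Eno1, an enolase gene, held 6 summits and the other side 2, or 1.60 per 100 kb. Rere was the member whose density, 2.50, stood least above that of its surroundings as a ratio. Its paralog Atn1 had 1 summit with a score of 12.4. The genes of proteins linked to RERE, the histone deacetylases Hdac1 and Hdac2 and the nuclear receptors Nr2f1, Nr2f2 and Nr2e1, had none. With Atn1 this made 1 of 6 genes with a summit, against 25.8% of all protein-coding genes, and nothing is read from so few genes.

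Wwox (gene ID 80707; GRCm38 chromosome 8, 114439635 to 115352712) is 913.1 kb long. It had 8 summits in the gene body and 1 in the flank, and 8 of the 9 lay in or beside the 25.8% of the gene at its lower-coordinate end. The flank summit, at position 114439475, was 160 bases outside that end and had the highest score of the gene, 48.1, rank 929. Another 7 followed over the next 236 kb, with scores from 5.38 to 17.4. The last, at 114902724 and 50.7% of the way along, had a score of 26.0. The rest of the gene, 450.0 kb, held none.

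Spacing among the first 8 summits of Wwox ran from 9.86 to 65.1 kb, and the gap to the last was 227 kb. The empty part continued past the gene. No summit lay in the 351 kb between Wwox and Maf, which encodes a basic leucine zipper factor active in endocrine cells, and the nearest summit to Maf was 168 kb away. On the other side, the gene nearest to Wwox, Clec3a, had no summit within 10 kb. The lncRNA gene Gm16116, nested in Wwox, had 2 summits within 10 kb and none inside it.

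Wwox belongs to a class of very long genes at common fragile sites, regions that break under replication stress. Of 16 other such genes, 11 had a summit, against 46.9% of the genes similar in length to the members and 25.8% of all protein-coding genes. Some of the 16, among them Cntnap2 (2241 kb), are longer than any gene of the similar-length set, which reaches 1643 kb. Nothing is read from this count. The median over the 16 genes was 1 summit and the highest count was 5, at Auts2. Cntnap2 had 4, Nbea 3 and Immp2l 2. Fhit, the other classic gene of this class, had none over 1612 kb. Of the 6 genes listed as coding for partners of WWOX, Tfap2a and Trp73 had 1 summit each and the other 4 had none, a share near the 25.8% of all protein-coding genes.

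**Figure D3:**
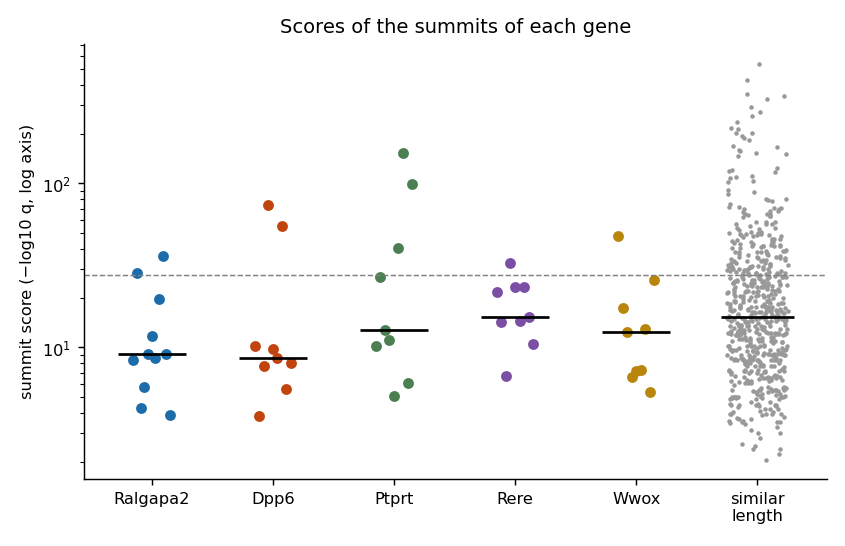
Score of every summit of the 5 genes (coloured points) and of the 612 summits of genes of similar length (grey points) on a log axis, with medians as black lines and the top 25% score of 27.7 dashed. Ptprt and Dpp6 reach 154 and 74.1, whereas the scores of Rere stay between 6.71 and 32.6.

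The 5 genes, chosen for high counts, did not have a larger share of strong summits than the list. Of the 47 summits of the 5 genes, 9 were in the top 25%, 19.1% (95% exact binomial interval 9.15% to 33.3%), against 25.1% of all placed summits. The 612 summits of genes of similar length had 27.6% (24.1% to 31.3%). The intervals overlap, and the difference was not tested. They cover counting error only, and neighbouring summits may not be independent. By gene the count in the top 25% was 3 of 9 at Ptprt, 2 of 11 at Ralgapa2, 2 of 9 at Dpp6, and 1 of 9 at both Rere and Wwox. The top 10% of the list held 2 summits of Ptprt and 1 of Dpp6. The median score over the 47 was 11.2, against 15.3 at genes of similar length and 13.7 in the whole list.

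A minimum score of 10 reordered the genes. Rere kept 8 of its 9 summits and Ptprt 7 of 9, while Wwox kept 5 of 9, Ralgapa2 4 of 11 and Dpp6 3 of 9. Of the 200 genes of similar length, 21 then had at least as many as Dpp6, and 6 each as many as Ralgapa2 and Wwox. For Ptprt and Rere that number was 1 each. The high counts of Ralgapa2 and Dpp6 thus rested mainly on summits of low score.

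**Figure D4:**
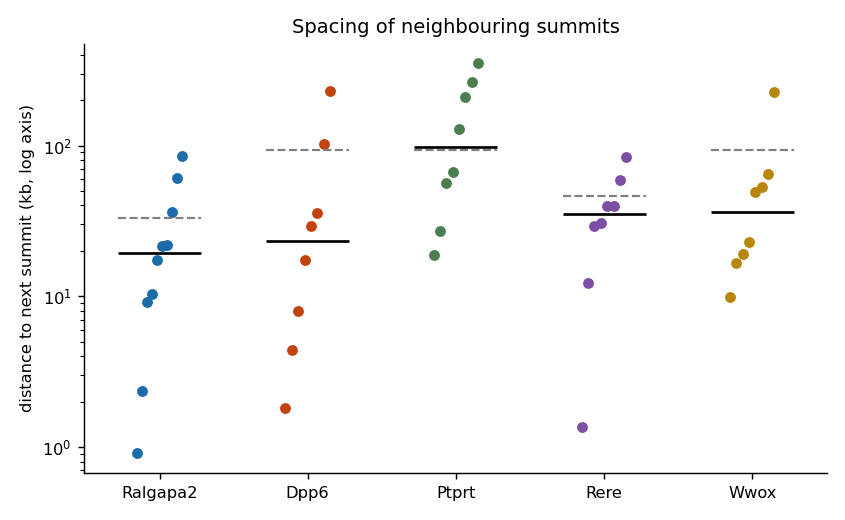
Distance between neighbouring summits of each gene (points, kb on a log axis), with the gene's median as a black line and the median within the 200 genes of similar length as a dashed grey line. The medians of Dpp6 and Wwox, 23.2 and 36.1 kb, lie below the dashed lines, and that of Ptprt, 98.3 kb, lies at it.

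Over the 42 distances between neighbouring summits of the 5 genes the median was 30.0 kb, and 4 were under 2500 bases. Dpp6 and Wwox had median spacings of 23.2 and 36.1 kb, against 93.4 and 93.8 kb within genes of similar length. For Ralgapa2 and Rere the medians were 19.4 and 35.0 kb, against 32.8 and 46.4 kb. Spacing depends in part on how many summits a length holds, so these values are not independent of the counts. They did not simply follow the counts, as Ptprt with 9 summits had 98.3 kb against 92.8 kb. The values for genes of similar length come only from genes with at least 2 summits. In Dpp6 and Wwox the summits also covered only part of the gene. The distance from the first to the last summit, flank summits included, equalled 47.2% and 50.7% of the gene's length. It equalled 97.4% in Ralgapa2, 98.5% in Ptprt and 87.0% in Rere. Ptprt, Rere and Wwox have 1 flank summit each. Inside Rere the summits ran from 9.20% to 84.5% of the way along the gene.

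**Figure D5:**
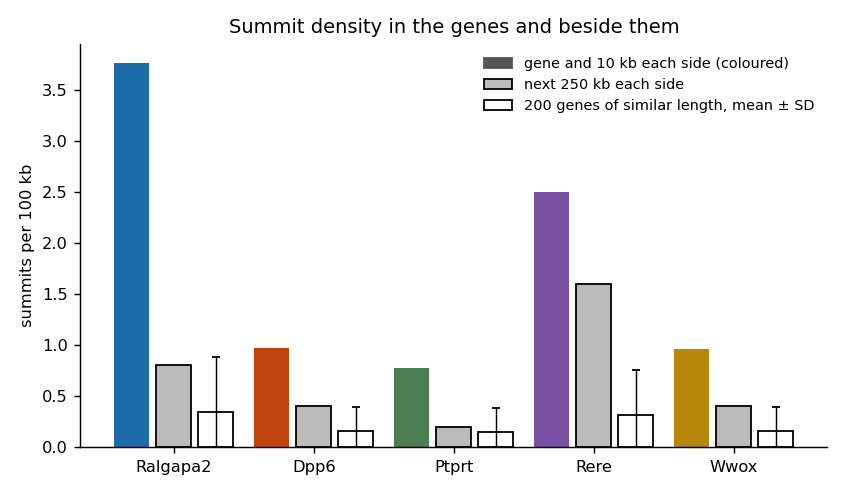
Summits per 100 kb in each gene with its 10 kb flanks (coloured), in the next 250 kb on each side (grey), and in the 200 genes of similar length (white, mean with SD, the lower arm ending at 0). Each gene lies above its surroundings, with 3.76 against 0.800 at Ralgapa2 and 2.50 against 1.60 at Rere. The genes were chosen for their counts and the surroundings were not, so nothing is read from this contrast.

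The summits of the 5 genes shared a distance from gene ends. More than 10 kb from any end of a protein-coding gene lay 40 of 47, 85.1% (95% exact binomial interval 71.7% to 93.8%), against a background of 49.6% of all placed summits. At genes of similar length the share was 82.0% (78.8% to 85.0%), so it differed little from what long genes show in this list. Within 1 kb of such an end lay 2 of 47, 1 at Ralgapa2 and 1 at Wwox. None of the summits lay inside any of the 14 genes nested in the members. Exons and introns were not distinguished here.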

How the data were processed

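NKX2.2 ChIP and input libraries of alphaTC6 cells were sequenced, and the tools FastQC, Bowtie2 and MACS2 and the build mm10 are named, without versions, per the submitters' processing notes. The deposited list holds 1 summit per peak with a score, taken as the −log10 q-value of MACS2; the lowest, 2.03, lies just above what a q-value of 0.01 gives. Handling of duplicates and pooling of replicates are not given in the sources used here.

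Positions were written counting from 1 and joined to RefSeq genes of GRCm38.p6, the assembly behind mm10. Counts per gene used the body and 10 kb on each side. Genes of similar length were the 200 protein-coding genes nearest in length. Shares have exact Clopper-Pearson 95% intervals. Promoter sequences came from RefSeq; 17492 protein-coding genes had one. All 48 list genes were matched. The 5 genes, the lists, which hold partners and paralogs, and the rule for named genes (all members and their summits, flanking and nested genes, at most 5 list genes with summits, the similar-length gene with most, and genes of at least 200 kb with 9 or more) were chosen with earlier results of these data known; list genes without a summit, Insm1's nearest summit and genes at 8 summits were named after their values were seen. Some genes that the rule or the threshold would name are not reported here. Alternatives covered the score minimum, distance, merging, the definition of strong summits and the matching. Counting was tested on simulated positions. The tools were scipy 1.17.1, pandas 2.3.3, numpy 2.4.6 and matplotlib 3.10.9 under Python 3.11.15.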

Additional observations from a re-analysis of the deposited data

How the results depend on the processing

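No paired analysis was possible because the authors' summit list gives no measurement of single libraries, and no replicate could be left out in turn for the same reason. A score minimum of 10 lowered the summits at the 5 genes from 47 to 27 and raised their median spacing from 30.0 to 54.9 kb; fewer summits remain by construction. The share in the top 10% was 6.38%, against 19.1% in the top 25%, with backgrounds of 10% and 25.1%. The other 13 values computed for the 5 genes together or for genes of similar length stayed close: 44 to 52 summits with a score minimum of 5, other distances, merging or each summit given to its nearest gene, a top 25% share of 18.2% to 23.4%, and a mean of 1.05 to 1.21 summits in genes of similar length, averaged over the 5 sets. Merging joined summits within 500 bases, and the closest pair in the 5 genes lay 0.906 kb apart. It could therefore not join 2 summits of the same gene. Under the nearest-gene setting a summit inside a member stayed with it, so only flank summits could have moved. By gene, the counts of Ralgapa2, Dpp6 and Wwox fell by more than 1.5 times at a score minimum of 10 and moved less under every other setting computed. The comparison of genes of similar length at that minimum was chosen after seeing the data. With the depth unknown, a stretch without a summit shows only that no peak was called there.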
